A study of Mus musculus with 4 samples.

Results

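The dynein arm assembly factors are 9 genes, Dnaaf1, Dnaaf2, Dnaaf3, Dnaaf5, Dyx1c1, Pih1d3, Lrrc6, Zmynd10 and Ccdc103, taken as the rows of the count table whose Ensembl identifier carries that symbol in GENCODE M21 (GRCm38). They are 9 of 57010 identifiers, and all 9 passed the filter on low counts that left 23023 genes for testing. Newer names are Dnaaf4 for Dyx1c1, Dnaaf6 for Pih1d3 and Dnaaf11 for Lrrc6.

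Axonemal dyneins are the motors that bend cilia and the sperm tail. Their heavy, intermediate and light chains are folded and joined into outer and inner arms in the cytoplasm, before transport into the axoneme, by co-chaperones that work with HSP90, HSP70 and the R2TP complex. In people, loss of these factors causes primary ciliary dyskinesia, with missing dynein arms and often immotile sperm. In the testis, spermatids build a flagellum, and these factors are needed to arm it.

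Testis RNA came from male ICR mice, 8 weeks old at purchase, after 1 intraperitoneal injection of 30 mg/kg busulfan (BUS), an alkylating agent that depletes germ cells. The BUS group then received vehicle by gavage, and the BUS + ULA group received 50 mg/kg ursolic acid (ULA), a plant triterpenoid, daily for 4 weeks from 2 weeks after the injection. Each group had 2 libraries, called biological replicates in the methods. The labels do not say whether they came from separate animals, so p-values measure only the spread between these libraries, which may still be technical. Replicates differed by more than counting noise, with a chi-square per degree of freedom of 46.0 between the BUS and 44.1 between the ULA libraries, so neither pair is 1 library counted again. Both groups carry the BUS injection, and no group without it was analysed here.

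Libraries held 15078828 to 18216380 counts. Protein-coding genes took 96.3% to 96.9% of them in the BUS group, and 87.4% and 76.9% in the ULA libraries, where an identifier without a symbol took 7.88% and 18.5%. Markers of every testis cell type listed had counts. The summed level of 12 elongating spermatid markers was 4797 and 6692 CPM (counts scaled to library size with TMM factors) with BUS, and 11744 and 17213 CPM with ULA. The sum of 12 round spermatid markers was 1107 and 1449 CPM with BUS, and 1996 and 2236 CPM with ULA. For 14 Sertoli cell markers it was 6513 and 3340 CPM with BUS, and 1986 and 1223 CPM with ULA. In whole testis, fewer cells of a type and less RNA per cell cannot be told apart. Of 10 markers of multiciliated epithelium, 7 could be tested and 2 rose, Hydin and Deup1 (28.6%, beside 11.8% of all genes tested). The defining genes Mcidas and Sntn had 0 to 3 counts in any library.

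The promoters of 7 factors were matched in RefSeq (GRCm38.p6), all except Dnaaf1 and Lrrc6. Their letters were searched on both strands for the GGCAAC core of the X-box, the element bound by RFX factors, which switch on genes of cilia. The search was chosen after the promoters were read. The core lay within the 250 bases before to 50 bases after the start in 6 of 7, and in 12.5% of 32851 RefSeq promoters of that length. The looser core GGNAAC, which includes GGCAAC, was in all 7 and in 45.3% of promoters. An inverted pair, GTTNC and GNAAC with 1 to 5 bases between them, was in Dnaaf2, Pih1d3 and Ccdc103 and in 3.08% of promoters. Shown are 90 bases before and 30 bases from the start of the factor with the highest fold change (Pih1d3), the 2 with the lowest (Dnaaf2 and Dnaaf5) and Ccdc103, with each GGNAAC, on either strand, in capitals.
Pih1d3, chr1:31222749-31222868, plus strand: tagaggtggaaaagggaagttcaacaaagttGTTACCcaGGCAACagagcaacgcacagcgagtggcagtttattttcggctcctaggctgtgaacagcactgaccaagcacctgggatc
Dnaaf2, chr12:69198400-69198519, minus strand: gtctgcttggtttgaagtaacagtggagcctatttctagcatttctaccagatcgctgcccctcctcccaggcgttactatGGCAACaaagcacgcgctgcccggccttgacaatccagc
Dnaaf5, chr5:139150145-139150264, plus strand: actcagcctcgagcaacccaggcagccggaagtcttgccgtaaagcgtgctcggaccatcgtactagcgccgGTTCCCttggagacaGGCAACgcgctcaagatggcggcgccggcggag
Ccdc103, chr11:102881134-102881253, plus strand: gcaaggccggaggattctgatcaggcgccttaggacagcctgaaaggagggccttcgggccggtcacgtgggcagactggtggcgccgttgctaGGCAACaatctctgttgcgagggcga

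The GGCAAC core was thus shared by factors at both ends of the order of fold changes. In Pih1d3 it lay at -51 to -46, counted from -1 as the last base before the start, and in Dnaaf2 at -9 to -4. A match is a description of letters, not of binding.

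No assembly factor passed the test between ULA and BUS. At an adjusted p under 0.05 from edgeR's quasi-likelihood test, 0 of 9 were higher and 0 of 9 lower, beside 11.8% of all 23023 genes tested higher, 15.3% lower and 27% in either direction. The same count of 0 came from DESeq2 and from limma-voom. In simulated counts of 2 libraries against 2, edgeR recovered 15% of 2-fold changes and 96% of 4-fold changes. Far fewer genes changed in that simulation than passed here, which makes its adjusted threshold stricter, and none changed at low counts. Its shares are therefore not the power of this comparison. The largest fitted fold of the 9 was 1.88, while Pih1d2, outside the 9, passed at 1.81. The 95% interval included 0 for 7 of the 9 and reached a log2 fold change of 1.78 for Pih1d3. A count of 0 thus does not show that the factors were unchanged. At an unadjusted p under 0.05, 2 factors were higher, Lrrc6 and Pih1d3. These also passed the looser threshold that the study used, a fold over 1.5 with an unadjusted p under 0.05, as did 19.4% of all genes in the higher direction and 22.7% in the lower, where no factor passed. All 9 fitted log2 fold changes were above 0, with a median of 0.34, beside 0.024 over all genes tested and -0.22 over protein-coding genes. In 5 factors both ULA libraries lay above both BUS libraries, an order seen in 37.9% of all genes tested. No factor had the opposite order, seen in 37.2%.

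The levels of the factors differed widely. Per kilobase of exon, Dnaaf1 was the most abundant, at 229.9 ± 62.7 CPM per kb with BUS and 330.2 ± 17.95 with ULA (SD, n = 2 libraries each). Zmynd10 followed at 78.8 ± 21.7 and 110 ± 12.1 CPM per kb. Lrrc6 and Dnaaf3 had overlapping BUS libraries, with 30.4 ± 12.3 and 28.4 ± 5.54 CPM per kb, and were apart with ULA, at 51.4 ± 0.73 and 31.9 ± 1.77. Dnaaf5 (14.9 ± 0.51 CPM per kb with BUS) and Ccdc103 (11.3 ± 3.14) came next. Pih1d3 (3.61 ± 1.71), Dnaaf2 (1.17 ± 0.030) and Dyx1c1 (0.309 ± 0.015) were the lowest. The order from Dnaaf1 to Dyx1c1 was the same by the group means with ULA. Dnaaf1 alone took 62.7% to 64.8% of the summed CPM of the 9 factors in the 4 libraries.

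**Figure D1:**
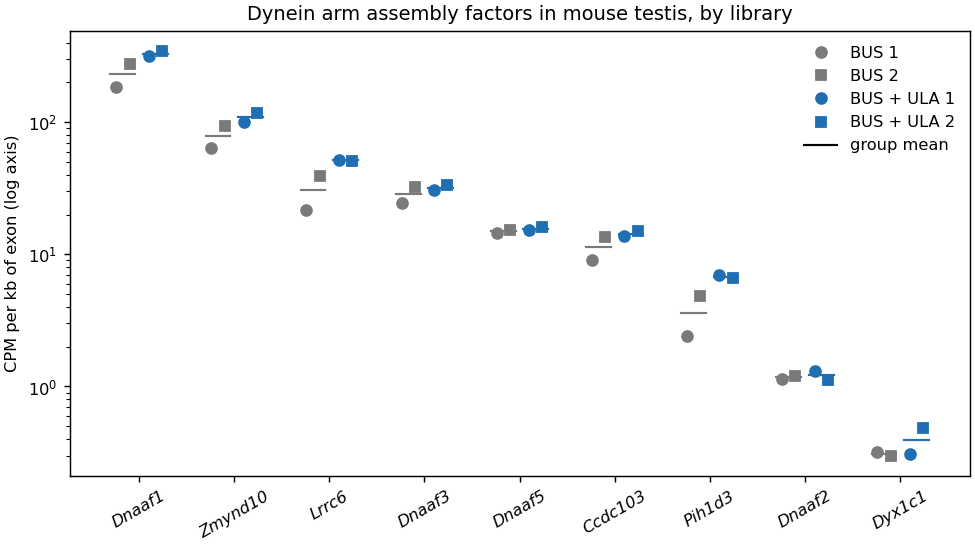
Level of each assembly factor in each library, in CPM per kb of exon on a log axis, with circles for replicate 1, squares for replicate 2 and bars for group means (BUS in grey, BUS + ULA in blue). BUS replicate 1 was the lowest of the 4 libraries in 7 of the 9 factors.

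Pih1d3, Dnaaf2 and Dyx1c1 carry domains of HSP90 co-chaperones. Pih1d3, a PIH-domain protein needed for dynein arms in mouse sperm, is a gene with 1 exon on chromosome 1 (31222838 to 31224288). It was at 3.47 and 6.99 CPM in the BUS libraries and at 10.04 and 9.67 CPM in the ULA libraries. Both ULA libraries lay above both BUS libraries, and the BUS libraries differed from each other by more than BUS replicate 2 differed from either ULA library. The log2 fold change was 0.91 (standard error, SE, 0.39, 95% interval 0.041 to 1.78, adjusted p = 0.10 from edgeR). The X-linked paralog Pih1h3b, whose transcript is 90.3% identical over 1366 aligned bases, held only 17 and 16 counts in the BUS libraries and 10 and 12 in the ULA libraries, beside 66 and 142, and 166 and 122, for Pih1d3. Reads of this pair could be shared.

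Dnaaf2 (kintoun), the PIH-domain factor first described in fish and algae, lies on chromosome 12 (69189087 to 69198429). It was at 3.89 and 4.04 CPM with BUS and at 4.48 and 3.80 CPM with ULA. The groups overlapped, and the log2 fold change was 0.065 (SE 0.35, 95% interval -0.72 to 0.85, adjusted p = 0.90 from edgeR). Of its 3390 exonic bases, 38.7% are shared with exons of the same-strand genes Gm49383 and Gm49384 and 32.7% with the opposite-strand 9330151L19Rik.

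Dyx1c1, which has a CS domain and TPR repeats, lies on chromosome 9 (72958785 to 72973064). Each BUS library held 12 counts of it and the ULA libraries 10 and 12, or 0.631 and 0.591 CPM and 0.605 and 0.951 CPM. The groups overlapped, with a log2 fold change of 0.32 and a wide interval, from -0.82 to 1.46. Only 3.39% of its exonic bases are free of other genes' exons, as 59.2% lie under Gm44503, on the same strand, and 37.4% under the opposite-strand Gm37710. The sources used here do not give how the counting treated shared bases, and its part in the low levels of Dyx1c1 and Dnaaf2 was not tested.

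Lrrc6 and Zmynd10 encode partners that bind each other during assembly. Lrrc6, a leucine-rich repeat and CS-domain protein on chromosome 15 (66379858 to 66500910), was at 45.3 and 81.6 CPM with BUS and at 108 and 106 CPM with ULA. The ULA libraries lay together above both BUS libraries, and BUS replicate 1 stood apart at the low end. The log2 fold change was 0.76 (SE 0.29, 95% interval 0.10 to 1.41, adjusted p = 0.078 from edgeR). Zmynd10, a MYND zinc finger protein on chromosome 9 (107547298 to 107551319), was at 135 and 201 CPM with BUS and at 215 and 252 CPM with ULA. The groups did not overlap, with a log2 fold change of 0.48 (SE 0.26, 95% interval -0.10 to 1.06, adjusted p = 0.18 from edgeR). The ratio of Lrrc6 to Zmynd10 CPM was 0.335 and 0.407 with BUS, and 0.503 and 0.422 with ULA.

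Dnaaf1, Dnaaf3 and Dnaaf5 are cytoplasmic factors whose loss in people removes dynein arms. Dnaaf1, a leucine-rich repeat protein on chromosome 8 (119575235 to 119598454), was at 524 and 774 CPM with BUS and at 896 and 967 CPM with ULA. The groups did not overlap, and the log2 fold change was 0.52 (SE 0.28, 95% interval -0.10 to 1.15, adjusted p = 0.17 from edgeR). Of its exonic bases, 20.7% lie opposite exons of Taf1c.
Dnaaf3, on chromosome 7 (4522933 to 4532453), was at 54.4 and 71.8 CPM with BUS and at 68.2 and 73.8 CPM with ULA. Its groups overlapped, with a log2 fold change of 0.17 (95% interval -0.36 to 0.70, adjusted p = 0.59 from edgeR). Dnaaf5, a HEAT-repeat protein on chromosome 5 (139150223 to 139186510), was the steadiest of the 9, at 51.1 and 53.6 CPM with BUS and at 53.4 and 56.7 CPM with ULA. The log2 fold change was 0.072 (SE 0.22, 95% interval -0.42 to 0.56, adjusted p = 0.82 from edgeR).
Ccdc103, known from fish and algae to sit on the axoneme as well and to help attach the arms, lies on chromosome 11 (102881204 to 102885216). It was at 17.3 and 25.6 CPM with BUS and at 26.0 and 28.3 CPM with ULA. BUS replicate 2 and ULA replicate 1 were nearly level, and the log2 fold change was 0.34 (SE 0.28, 95% interval -0.29 to 0.96, adjusted p = 0.37 from edgeR).

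Fold changes moved when a BUS library was left out, and which factors passed changed when GC content and transcript length were modelled together. Without BUS replicate 2, log2 fold changes were 1.49 (Pih1d3), 1.23 (Lrrc6), 0.82 (Dnaaf1) and 0.77 (Zmynd10). Without BUS replicate 1 they were 0.48, 0.38, 0.25 and 0.20, in the same order. In these fits the lone BUS library is assumed to vary like the ULA group. BUS replicate 1 also had the highest summed level of the 14 Sertoli cell markers and of 8 macrophage markers (589 CPM, beside 131 to 198 CPM in the other 3 libraries), and their part in the result was not tested.
An offset per library for GC content and transcript length changed the order of the factors. It was fitted to these same 4 libraries, so it also takes up any difference between the groups that follows GC or length. Technical and treatment differences of that kind cannot be told apart here. Dnaaf1, Dnaaf3 and Dnaaf5, with transcripts of 57.5%, 58.1% and 58.6% GC, had log2 fold changes of 1.195, 0.81 and 0.89 and passed (adjusted p = 0.040, 0.048 and 0.030 from edgeR). Zmynd10, of 55.8% GC, was at 0.87 (adjusted p = 0.053 from edgeR). Pih1d3 (36.7% GC) and Lrrc6 (41.6% GC) were at 0.13 and 0.40 and did not pass. In this fit 2211 of all 23023 genes tested were higher and 2545 lower. The median of the 9 factors was 0.68 with this offset, beside 0.027 over all genes.
Scaling moved the level of all factors together. With upper-quartile factors the median of all genes was 0.31 and that of the 9 factors 0.61, and Lrrc6 passed (1.01, adjusted p = 0.041 from edgeR). With library size alone the medians were -0.20 and 0.10, and Dnaaf2, Dnaaf3 and Dnaaf5 were below 0. Over all genes, 2706 were higher and 3512 lower with TMM. Upper-quartile factors gave 4282 higher and 2364 lower, and library size alone gave 1877 higher and 5031 lower.

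**Figure D2:**
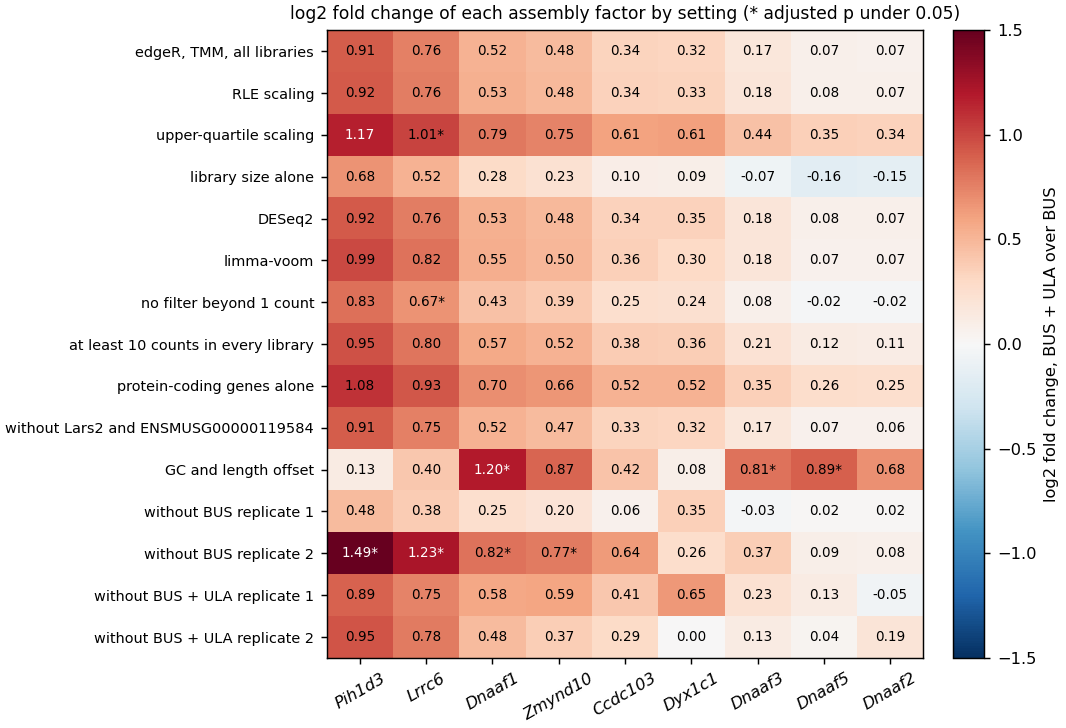
Log2 fold change of each assembly factor (columns) in the fit with TMM scaling and all 4 libraries and in other settings (rows). Red is for values above 0, blue for values below 0 and an asterisk for an adjusted p under 0.05. Fits with the replicate number as a block are not shown. Asterisks appear in 3 factors with the GC and length offset, and in Lrrc6 with upper-quartile scaling and with no filter beyond 1 count. Those without BUS replicate 2 come from a fit with 1 BUS library, where a larger share of all genes tested passed as well.

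The clients of these factors, the axonemal dynein heavy chains, were higher with ULA. Of 15 heavy chains, 13 rose at an adjusted p under 0.05 from edgeR, beside 11.8% of all genes tested. None fell, and the median log2 fold change was 1.52. Dnah8, an outer arm chain of sperm, went from 1422 and 1958 CPM with BUS to 7090 and 9818 CPM with ULA, and the inner arm chains Dnah3 and Dnah14 had log2 fold changes of 1.92 and 1.89. Those that did not pass were the outer arm chains Dnah9 (0.19) and Dnah11 (1.14). Dnah7a, Dnah7b and Dnah7c are close copies, so their separate counts are uncertain. The count was 8 without ULA replicate 2 and 9 with library size alone.
The ratio of heavy chain to assembly factor RNA was higher in both ULA libraries than in both BUS libraries. The summed CPM of the 15 heavy chains was 3.42 and 3.31 times that of the 9 factors in the BUS libraries, and 7.75 and 9.84 times in the ULA libraries. Without the most abundant member of each family, Dnah8 and Dnaaf1, the ratios were 4.62 and 4.68 with BUS and 7.43 and 9.29 with ULA. On levels per kilobase of exon they were 0.461 and 0.447, and 0.943 and 1.196. The groups did not overlap in any of these. The ratios are given as a description. A two-sided exact permutation test on them could not go below p = 0.333, and the difference between the families was not tested in a model.
The heavy chains have exons of 12009 to 26820 bases and the factors of 1451 to 3514 bases. With the GC and length offset the medians came closer, at 1.11 for the heavy chains, of which 11 passed, and 0.68 for the factors.

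**Figure D3:**
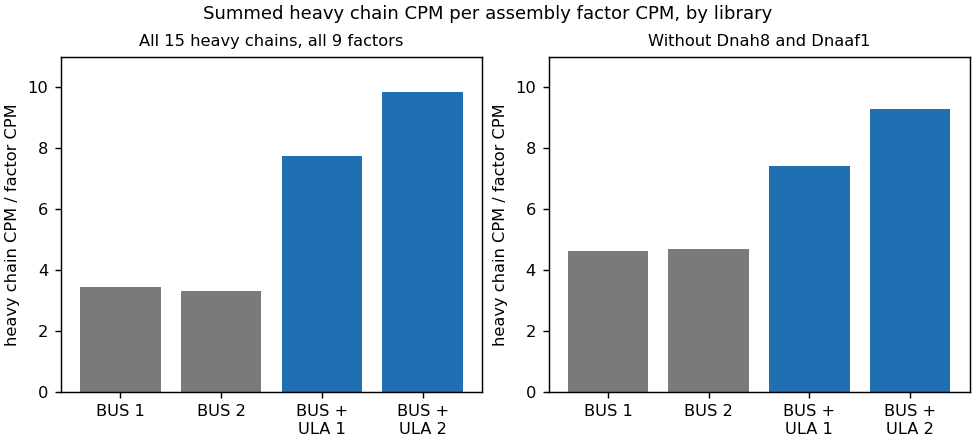
Summed CPM of the axonemal dynein heavy chains divided by the summed CPM of the assembly factors, 1 bar per library (BUS in grey, BUS + ULA in blue), for all genes on the left and without Dnah8 and Dnaaf1 on the right. The ratio was 3.42 and 3.31 with BUS and 7.75 and 9.84 with ULA for all genes.

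The smaller subunits had a median log2 fold change between those of the factors and the heavy chains. Among 10 intermediate and light chains it was 0.76, and 4 of them rose while the other 6 missed the threshold. The 4 were 40% of the list, beside 11.8% of all genes tested. Those that rose were the intermediate chains Wdr63 (1.08) and Wdr78 (1.02), the light chain Tctex1d1 (1.02) and the thioredoxin-domain arm protein Nme8 (0.92). Upper-quartile scaling gave 7, where 4282 of all 23023 genes tested rose, and library size alone gave only Wdr63, where 1877 rose. The GC and length offset also gave 4, but of these only Wdr63 was the same, beside the intermediate chains Dnaic1 and Dnaic2 and the light intermediate chain Dnali1. Fewer passed when either ULA library was left out than in the fit to all 4 libraries. The median of the 10 was 0.46 without BUS replicate 1 and 1.18 without BUS replicate 2. It was 0.88 without ULA replicate 1 and 0.70 without ULA replicate 2. Docking and ruler proteins place the arms on the doublets. Of 8 such proteins, 1 (12.5%) rose in the fit to all 4 libraries, beside 11.8% of all genes tested. This was Efcab1 (calaxin), from 3.63 and 5.46 CPM to 13.01 and 18.3 CPM, by 1.78 on the log2 scale (SE 0.35, adjusted p = 0.011 from edgeR). It did not pass without ULA replicate 2 (adjusted p = 0.064 from edgeR). The count was 4 with upper-quartile scaling, where 4282 of all 23023 genes tested rose. It was 2 with protein-coding genes alone, where 1475 of 16299 rose. With the GC and length offset it was also 2 (with the ruler Ccdc40 at 1.34), where 2211 of 23023 rose. The median log2 fold change of the 8 was 0.52 in the fit to all 4 libraries. Without BUS replicate 2 it was 0.77, beside 0.076 over all genes, and more of the 8 and of all genes passed.

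Among 12 other proteins listed with arm assembly, 3 rose (25%, beside 11.8% of all genes tested). None fell and 9 did not pass, with a median log2 fold change of 0.48. Pih1d2, another PIH-domain protein, went from 20.5 and 27.8 CPM to 43.3 and 44.2 CPM (0.86 on the log2 scale, SE 0.25, adjusted p = 0.036 from edgeR). Daw1, whose algal counterpart carries outer arms into the flagellum, had a log2 fold change of 0.85. The third was Fbxl13 (0.78), known as a subunit of the nexin-dynein regulatory complex rather than as a chaperone. None of the 3 passed under library size scaling, under the GC and length offset, without BUS replicate 1 or without either ULA replicate. Without BUS replicate 2 the median log2 fold change of the 12 was 0.65, beside 0.076 over all genes. With the offset 4930562C15Rik was the one higher (0.91), and without BUS replicate 1 Cfap298 was lower (-0.72). Pih1d1, the PIH subunit of R2TP, was at 55.4 and 89.4 CPM with BUS and at 75.7 and 70.9 CPM with ULA, with overlapping groups.

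The general chaperones of the pathway held no gene that rose in the fit to all 4 libraries. Of 12 genes of R2TP, HSP90, HSP70 and their partners, 2 fell (16.7%), near the 15.3% of all genes tested that fell. Their median log2 fold change was -0.23, beside 0.051 with upper-quartile scaling and 0.032 with the GC and length offset. Hspa8, the constitutive HSP70, went from 391 and 262 CPM to 187 and 139 CPM, or -1.005 on the log2 scale (SE 0.28, adjusted p = 0.029 from edgeR). Hsp90ab1, the constitutive HSP90, had a log2 fold change of -0.85 (adjusted p = 0.045 from edgeR), from 871 and 650 CPM to 473 and 370 CPM. Both were past the threshold with library size alone and neither was with upper-quartile scaling, with protein-coding genes alone or without either ULA replicate. Hsp90ab1 also missed it with the GC and length offset, without BUS replicate 1 and with at least 10 counts in every library. Ruvbl2, an ATPase of R2TP, passed as higher with the GC and length offset (1.08, adjusted p = 0.028 from edgeR) and without BUS replicate 2 (0.67, adjusted p = 0.028), beside 0.44 in the fit to all 4 libraries without the offset. Hsp90aa1, the HSP90 form abundant in germ cells, was at 1054 and 1281 CPM with BUS and at 1790 and 1633 CPM with ULA (log2 fold change 0.55). Sertoli cell markers were lower in the same libraries (13 of 14 fell), and their part in the values of Hspa8 and Hsp90ab1 was not tested.

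**Figure D4:**
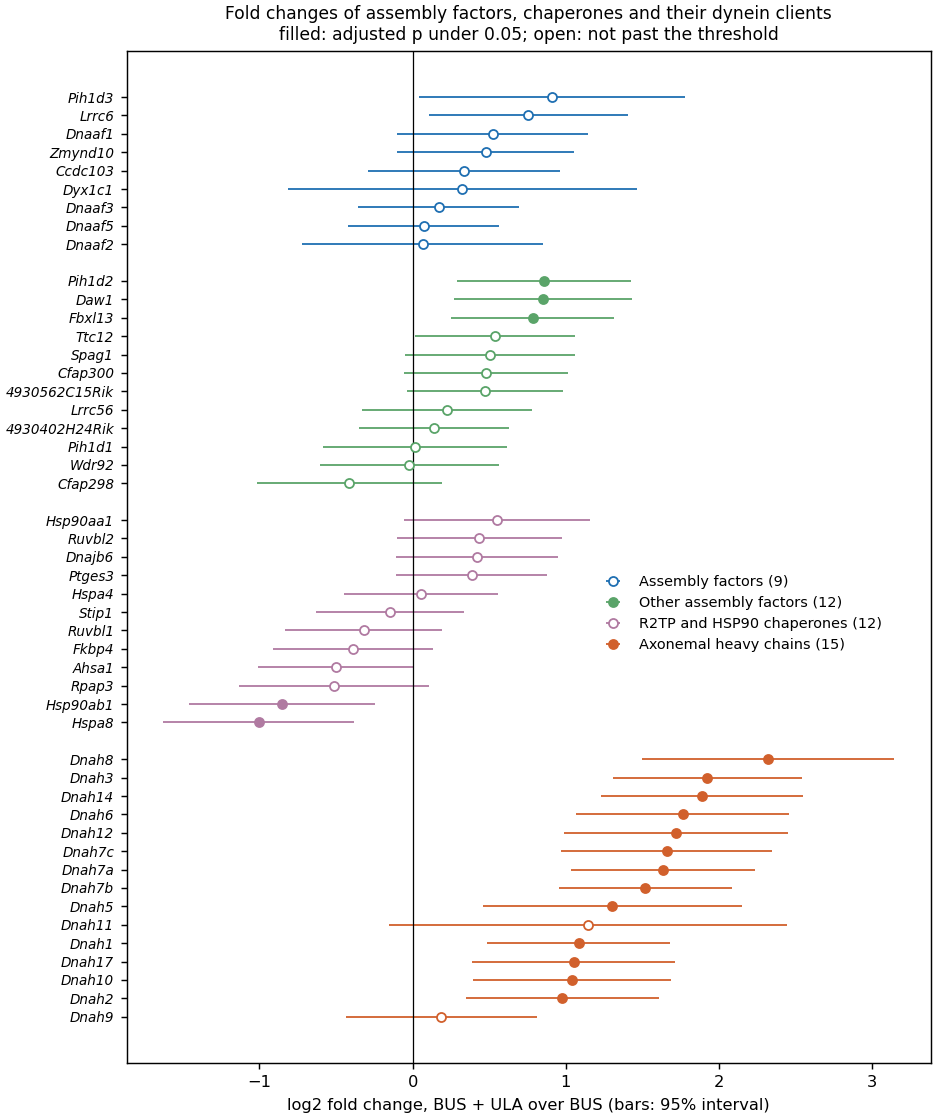
Log2 fold change of BUS + ULA over BUS with its 95% interval for the 9 assembly factors, 12 other assembly proteins, 12 chaperones and 15 axonemal heavy chains, with filled points for an adjusted p under 0.05. The 9 factors lay between 0.065 and 0.91, all open, and 13 of 15 heavy chains were filled.

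Among 5 transcription factors of cilium genes that could be tested, 1 rose (20%, beside 11.8% of all genes tested). The gene that rose was Rfx3, and the others did not pass. Rfx3 went from 25.3 and 30.3 CPM with BUS to 49.8 and 62.2 CPM with ULA (1.01 on the log2 scale, SE 0.24, adjusted p = 0.020 from edgeR). It missed the threshold under library size scaling, under the GC and length offset and without ULA replicate 2. Rfx2, the most abundant RFX gene here and known for its role in spermatids, was at 232 and 313 CPM with BUS and at 337 and 417 CPM with ULA (log2 fold change 0.47). Foxj1, the forkhead regulator of motile cilia, was at 58.5 and 89.8 CPM with BUS and at 58.4 and 55.2 CPM with ULA. The genes that passed depended on the setting. With the GC and length offset they were Rfx1 (0.91) and Rfx2 (0.999) instead of Rfx3, and the median of the 5 was 0.77, beside 0.47 without it. Without BUS replicate 1 the log2 fold changes were 0.87 for Rfx3 and -0.68 for Foxj1. Without BUS replicate 2 they were 0.69 for Rfx2, 1.13 for Rfx3 and 0.79 for Rfx4, beside a median of 0.076 over all genes.

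Set against germ cell markers, the factors differed among themselves, and the values for spermatocytes hung on 1 marker. Relative to the summed CPM of 12 round spermatid markers, the median ULA to BUS ratio of the factors was 0.771, and in 6 of 9 factors both ULA libraries lay below both BUS libraries. Pih1d3 (1.18) and Lrrc6 (1.05) were the factors above 1. Relative to 12 elongating spermatid markers the median was 0.519, with all 9 below 1. Both spermatid sums were themselves higher in the ULA libraries, so a gene with no change would also have a ratio below 1. The share of all genes with such ratios was not computed.
Relative to 12 spermatocyte markers the ratio ran from 0.815 for Dnaaf2 to 1.56 for Pih1d3, with a median of 1.02. Ybx2, an RNA-binding protein of germ cells, made up 36.3% to 49.6% of that sum, and without it the median was 0.836. For Dnaaf1, Zmynd10 and Ccdc103 the direction turned, from 1.16, 1.12 and 1.02 with Ybx2 to 0.949, 0.921 and 0.836 without it. Leaving out the most abundant marker of the spermatid lists gave medians of 0.800 (round, without Tssk2) and 0.458 (elongating, without Odf2). These ratios are descriptions, and no test was made of them.

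The genes whose profile over the 4 libraries was nearest to the mean profile of the 9 factors were Ccdc36, a protein of the meiotic chromosome axis, Bora, an activator of Aurora A kinase, and Tex10. Their root mean square differences from that profile were 0.0079, 0.0083 and 0.016 on the log2 scale. With 4 libraries such a match is common, and 760 of 15326 protein-coding genes lay within 0.1.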

How the data were processed

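The deposited table holds whole-number read counts for each Ensembl identifier, left unscaled by the authors. Trimming with Fastp, alignment with STAR to GRCm38 and counting with FeatureCounts are described in the study's methods, while RSEM 1.3.1 appears in the submitters' processing notes. Neither source gives the strand setting or the rule for shared reads, so overlapping and antisense genes may not be told apart. Of 57010 identifiers, 52081 were in GENCODE M21. Genes were kept by filterByExpr (minimum count 10, minimum total 15), scaled by TMM (factors 0.839 to 1.12) and compared with edgeR 4.0.16 in R 4.3.3, with Benjamini-Hochberg adjustment over 23023 genes. Fold changes are the model's coefficients, standard errors come from its F statistic, and intervals are unadjusted. A count of 0 allows up to 0.148 to 0.238 CPM (3 counts, counting error only). Alternatives used DESeq2 1.42.0, limma 3.58.1 and, for GC content and length (known for 22444 genes), mgcv 1.9.3.

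The members and lists were chosen with earlier results of these data known. Named genes were the 9 factors, up to 4 per list by p among those past the threshold (or the 2 most abundant), 2 markers per cell type and the 3 nearest profiles, and genes named beyond these were chosen after their values were seen. Steps were tested on simulated data with 2 libraries against 2. Far fewer genes were changed there than passed in the real data, and none of low count. Of 2-fold changes, edgeR recovered 15%, DESeq2 20% and limma-voom 12%. Of 4-fold changes they recovered 96%, 95% and 95%.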

Additional observations from a re-analysis of the deposited data

How the results depend on the processing

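Over all genes, 2706 were higher and 3512 lower. The counts were 4282 higher with upper-quartile scaling, 1475 and 2258 with protein-coding genes alone, 4464 higher at a fold over 1.5 with an unadjusted p under 0.05, and 656 to 5556 higher and 714 to 6429 lower when 1 library was left out. Of the 9 factors, the count of higher genes was 1 with upper-quartile scaling, 1 with no filter beyond 1 count, 3 with the GC and length offset, 2 at the looser threshold and 0 to 4 when 1 library was left out. None was lower in any setting. With the replicate number as a block, 5151 genes were higher and 5901 lower, and 4 factors were higher (Pih1d3, Lrrc6, Dnaaf1 and Zmynd10). With the block and the offset together 5149 were higher and 5573 lower, and 4 factors were higher (Dnaaf1, Dnaaf3, Dnaaf5 and Zmynd10). With the block alone, 7 of 8 docking and ruler proteins, 8 of 10 intermediate and light chains and 3 of 5 transcription factors were higher. So were 14 of 15 heavy chains and 7 of 12 other assembly proteins. Of the 12 chaperones, 3 were higher and 5 lower. With the block and the offset these counts were 7 of 8, 7 of 10, 5 of 5, 14 of 15 and 8 of 12. The chaperones then had 2 higher and 4 lower. Deviations of same-numbered libraries correlated at 0.33, but the labels give no shared animal or batch, so the libraries share only a number. The factors that turned below 0, none of them past the threshold, were Dnaaf2 (-0.15), Dnaaf3 (-0.065) and Dnaaf5 (-0.16) with library size alone, and Dnaaf2 (-0.022) and Dnaaf5 (-0.019) with no filter. With 1 library left out, Dnaaf2 ran from -0.048 to 0.19 and Dnaaf3 from -0.035 to 0.37. Among marker genes, Ybx2 (-0.065) was 0.20 with upper-quartile scaling, 0.11 with protein-coding genes alone, 0.76 with the offset, 0.79 with the offset and block, and -0.34 to 0.23 with 1 library left out. Vwf (-0.50) was 0.077 and 0.085 with the offset, without and with the block, and Mrc1 and Lyz2 ran from -1.16 to 0.25 and from -1.96 to 0.26 with 1 library left out. The causes were not tested. Depth limits Dyx1c1, Dnaaf2 and Pih1d3, at 10 to 166 counts per library. The ratios without the most abundant marker were chosen after seeing the data.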
